A study of Mus musculus with 9 samples.

Results

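The Eph, ephrin, Slit, Robo and netrin guidance genes were followed in the RNA of dissected mouse midbrain at E14.5 (embryonic day 14.5). The set was named by gene symbol and comprised 40 genes of these ligand and receptor families, of which 39 were found in the table of 51912 genes, while *Ntn3* was not analysed here. It held 8 ephrins, 14 Eph receptors, 7 Slit and Robo genes, and 10 netrins and netrin receptors, and all 39 passed the minimum mean of 5 normalized counts that left 16993 genes for testing. A normalized count is the number of reads on a gene after scaling of the libraries to one another.

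There were 9 libraries from C57Bl/6 embryos, 3 for each of the genotypes +/+, LacZ/+ and LacZ/LacZ at the homeobox gene *Nkx2.9*, which carry on neither, 1 or both copies an allele with *LacZ* in place of the first exon. Each library pooled the cDNA of 2 midbrains, so that the p-values below measure the spread between pools. The value columns name a genotype without a replicate number, and libraries are therefore given by column, with columns 1 to 3 labelled LacZ/LacZ, columns 4 to 6 labelled LacZ/+ and columns 7 to 9 labelled +/+. The comparisons address whether guidance genes differed between these genotypes, and all 3 comparisons share libraries.

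Guidance cues steer growing axons and migrating cells. Ephrins are membrane-bound ligands that signal to Eph receptor tyrosine kinases on contact and can signal back into their own cell, with the A class anchored by lipid and the B class spanning the membrane. Slits are secreted repellents read by Robo receptors and are best known for keeping axons from recrossing the ventral midline, whereas netrins attract axons through Dcc and repel them when Unc5 receptors take part. In the developing midbrain, graded ephrin-A and ephrin-B pattern the map of incoming retinal axons, and floor plate netrin and Slit shape the paths of dopamine axons and of commissural axons.

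The columns held between 1692963 and 5942192 reads on genes, with a median of 4921748. Column 7 (labelled +/+) was the shallowest, where 1 read was worth 2.59 normalized counts, followed by column 4 (labelled LacZ/+) with 2584074 reads. *Nkx2.9* itself received 28 reads in all 9 libraries together. These were 4, 6 and 3 reads in the libraries labelled LacZ/LacZ, 0, 7 and 4 in those labelled LacZ/+, and 0, 2 and 2 in those labelled +/+. The counts were thus not lower under the LacZ/LacZ label, and reads outside the replaced exon would not check the labels. The place of these reads within the gene is not known here, and genotypes and directions are given throughout as labelled, so that an exchange of the +/+ and LacZ/LacZ labels would turn every direction between them. *Xist*, made from the inactive X chromosome, was between 4607 and 5182 normalized counts in the libraries labelled LacZ/LacZ, but 79.9, 14.5 and 2929 in those labelled LacZ/+ and 4342, 2580 and 47.1 in those labelled +/+, so the sex of the pooled embryos differed between the genotypes as well.

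The 39 genes spanned a wide range of levels. Per kilobase of exon, *Efnb3*, the ephrin-B ligand known from the corticospinal midline, had the highest level with a mean of 249.8 normalized counts per kb over the 9 libraries. It was the only 1 of 38 neighbouring pairs in the order of levels whose libraries did not overlap, as its lowest library (206) lay above the highest library of *Ephb2* (179), the gene that followed. Next in order came the receptor kinase *Ephb2* with 167 per kb, the netrin and repulsive guidance molecule receptor *Neo1* with 156, the Slit receptor *Robo1* with 144 and the receptor kinase *Ephb1* with 143. The ranges of these 4 genes overlapped. Within libraries, *Ephb2* was above *Robo1* in 9 of 9, above *Ephb1* in 8 and above *Neo1* in 7.

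The level order continued with *Ntn1*, the midline netrin, at 117 normalized counts per kb, *Robo2* at 112, *Slit1* at 96.0, *Dcc* at 90.7 and *Ephb6*, an Eph receptor without kinase activity, at 84.9. At the low end were *Efna4* with 5.90 per kb, the vascular receptor *Robo4* with 5.26, *Epha2* with 3.41, *Efna1* with 3.26 and *Epha1* with 2.15. Among the 39 genes, 27 lay above the median of 20.4 per kb over all tested genes with a known exon length. Per kb levels depend on the length used, and with the longest transcript in place of the merged exons *Robo1* took the top position with 314 per kb, ahead of *Efnb3*.

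**Figure D1:**
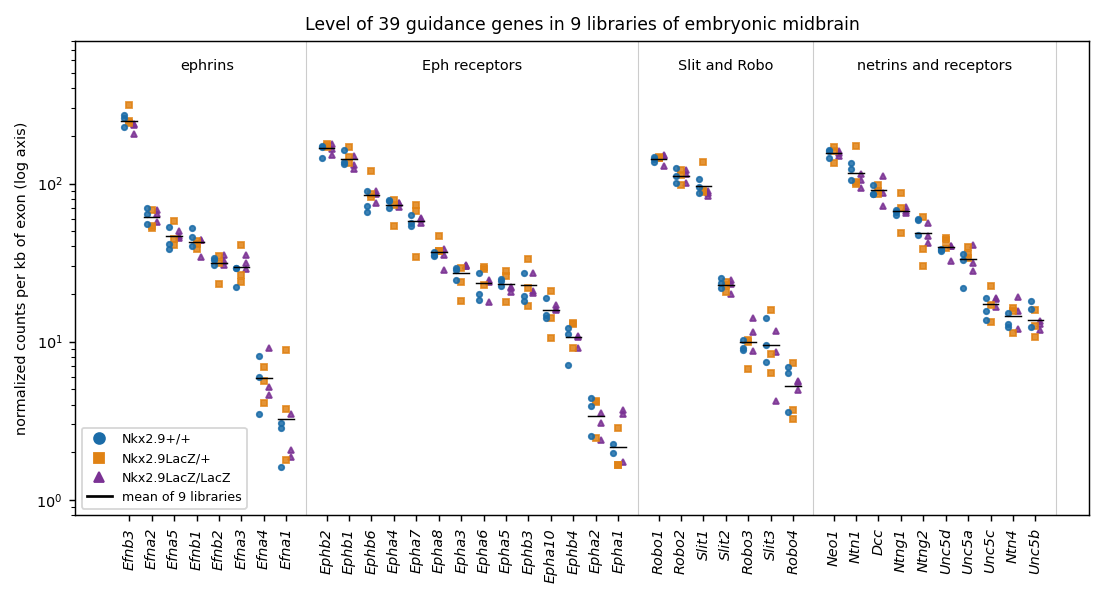
Level of each of the 39 guidance genes in normalized counts per kb of exon (log axis) in each of 9 libraries, grouped by role and ordered by mean; circles are +/+, squares LacZ/+ and triangles LacZ/LacZ as labelled, and the bar is the mean of the 9 libraries. *Efnb3* sits on top with 249.8 per kb and *Epha1* at the bottom with 2.15, whose value of 0 in column 7 cannot be drawn on a log axis.

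Summed within classes on the same per kb scale, EphB receptors made up the largest class by merged exon length with 428 normalized counts per kb, led by *Ephb2* with 39.0% of the sum. Ephrin-B ligands followed with 324, of which *Efnb3* gave 77.1%. The Robo receptors summed to 271, the EphA receptors to 263 and *Dcc* with *Neo1* to 246, while ephrin-A ligands summed to 147, secreted netrins to 131, Slits to 128, the membrane-anchored netrin-G genes to 116 and Unc5 receptors to 104. A leading gene therefore carried most of the ligand signal in several classes, with *Ntn1* at 88.9% of the secreted netrins and *Slit1* at 74.8% of the Slits, although the latter share was 59.1% with the longest transcript as length. With that length the order of the classes also turned, as Robo receptors (555) lay above EphB receptors (536) and EphA receptors (372) above ephrin-B ligands (340.3). The EphA class had no such leader, since its top gene *Epha4* held 27.6%. The top gene likewise held a minor share of EphB (39.0%), Unc5 (38.1%) and ephrin-A (41.9%).

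Some class sums differed little in their means between genotypes and others by more than an SD. EphA receptors summed to 263 ± 16.1 (SD, n = 3), 263 ± 39.9 and 263 ± 11.1 per kb in the libraries labelled +/+, LacZ/+ and LacZ/LacZ. For Robo receptors the sums were 269 ± 15.3, 271 ± 9.34 and 273 ± 19.8 in the same order, and for *Dcc* with *Neo1* 246 ± 14.0, 247 ± 23.3 and 246 ± 23.0. Ephrin-A ligands (143 ± 14.9, 146 ± 18.8 and 151 ± 2.16) and netrin-G genes (121 ± 8.70, 112 ± 29.0 and 116 ± 5.05) lay further apart. The LacZ/+ means of EphA receptors and netrin-G genes rested on column 4. EphA sums were 218 there against 292 and 280 in the other LacZ/+ libraries, which lay above every +/+ and LacZ/LacZ sum. Netrin-G sums were 78.7 in column 4 against 126 and 132.

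Sums were lower under the LacZ/LacZ label than under +/+ for ephrin-B ligands (301 ± 14.1 against 333 ± 29.3), Slits (117 ± 3.55 against 130.1 ± 12.6) and secreted netrins (120.2 ± 12.9 against 135 ± 15.2). Under the LacZ/+ label these 3 classes summed to 339 ± 36.03, 138 ± 30.4 and 139 ± 38.8. These means rested on column 4, whose sums were 381, 173 and 184 in the same order. The other LacZ/+ libraries had 316 and 322 for ephrin-B ligands, 119 and 121 for Slits and 116 and 117 for secreted netrins. In +/+, column 7 had the highest sums of Slits and secreted netrins (143 and 148). EphB and Unc5 receptors had their highest mean sums under the LacZ/+ label. For EphB this was 455 ± 45.9, against 413 ± 32.1 in +/+ and 417 ± 35.98 in LacZ/LacZ. Column 4 led the EphB value with 507, against 418 and 441 in the other LacZ/+ libraries and 440, 421 and 378 in +/+. For Unc5 the LacZ/+ sum was 109.9 ± 2.69, against 102 ± 9.80 in LacZ/LacZ and single values of 92.4, 108 and 99.2 in +/+. These sums were not tested.

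Several of the genes lie beside each other in the genome. In GRCm38 coordinates of the GENCODE M21 annotation, *Efna1*, *Efna3* and *Efna4* sit in a row on chromosome 3 with gaps of 32.8 kb and 10.4 kb. *Robo1* (chr16:72308306-73046095, plus strand) and *Robo2* are separated by 846 kb, and *Robo4* and *Robo3* by 0.553 kb on chromosome 9. Some neighbours differed widely in level, as *Efna3* had 29.7 normalized counts per kb against 3.26 for *Efna1*, and *Ephb2* had 167 against 36.8 for *Epha8*, which is 93.4 kb away on chromosome 4. Others were closer, with 144 for *Robo1* and 112 for *Robo2*, and 9.95 for *Robo3* and 5.26 for *Robo4*. For 10 of the 39 genes, exons overlap those of another annotated gene by 33 to 558 bp. These were *Efna3*, *Efna4*, *Epha1*, *Epha6*, *Epha10*, *Ephb1*, *Ephb4*, *Ntng2*, *Unc5a* and *Unc5c*, and their counts are uncertain to that extent because the strand setting of the counting is not given in the sources used here, except for *Ntng2*, whose overlap of 558 bp is with a gene on the same strand and would be uncertain under any setting.

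Variation between libraries depended on abundance. The coefficient of variation over the 9 libraries ran from 4.75% for *Robo1* to 69.1% for *Efna1*, with a median of 17.2%. For the 28 guidance genes with a mean over 100 normalized counts it had a median of 13.0%, beside 12.3% for the 7500 tested genes over that level. *Efna1* had between 2 and 10 reads in any library, and its coefficient of variation lay above the 42.8% that counting alone would give.

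Between the libraries labelled LacZ/LacZ and +/+, 0 of the 39 guidance genes passed an unadjusted p of 0.05 in limma, a linear model of log2(normalized count + 1) fitted across all genes. Of all 16993 tested genes 441 passed it (2.6%) and 0 passed after Benjamini-Hochberg adjustment (0%), also with edgeR and with DESeq2 on the recovered reads. The log2 fold changes of the 39 genes had a median of -0.0022, beside 0.01 for all tested genes, and a median size of 0.08, beside 0.15. These sizes were not matched for level. A mean over 100 normalized counts was reached by 28 of the 39 genes and by 7500 of all 16993 tested genes. The fold changes of the 39 genes ran from -0.40 for *Slit3* to 1.46 for *Epha1*, with 19 values above 0 and 20 below. Fold changes are on the log2(value + 1) scale, which shrinks the change of low genes, although a value of 0, as in *Epha1*, can enlarge it.

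The precision of this comparison differed among the genes. The 95% confidence interval of the log2 difference lay within -1 and 1, that is less than a doubling or halving, for 34 of the 39 genes, and within -0.5 and 0.5 for 20. It exceeded these outer bounds for *Efna1*, *Efna4*, *Epha1*, *Epha2* and *Slit3*, so that larger differences of these genes cannot be dismissed. For *Slit3* the spread between libraries (38.9%) was well above that from counting (13.7%). In bulk tissue, fewer cells of a type and less RNA per cell cannot be told apart, and the intervals apply to the tissue as a whole. Values of the LacZ/LacZ and +/+ libraries did not overlap for 2 of the 39 genes, *Epha3* and *Epha5*, where 9.52% of all tested genes had such values.

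**Figure D2:**
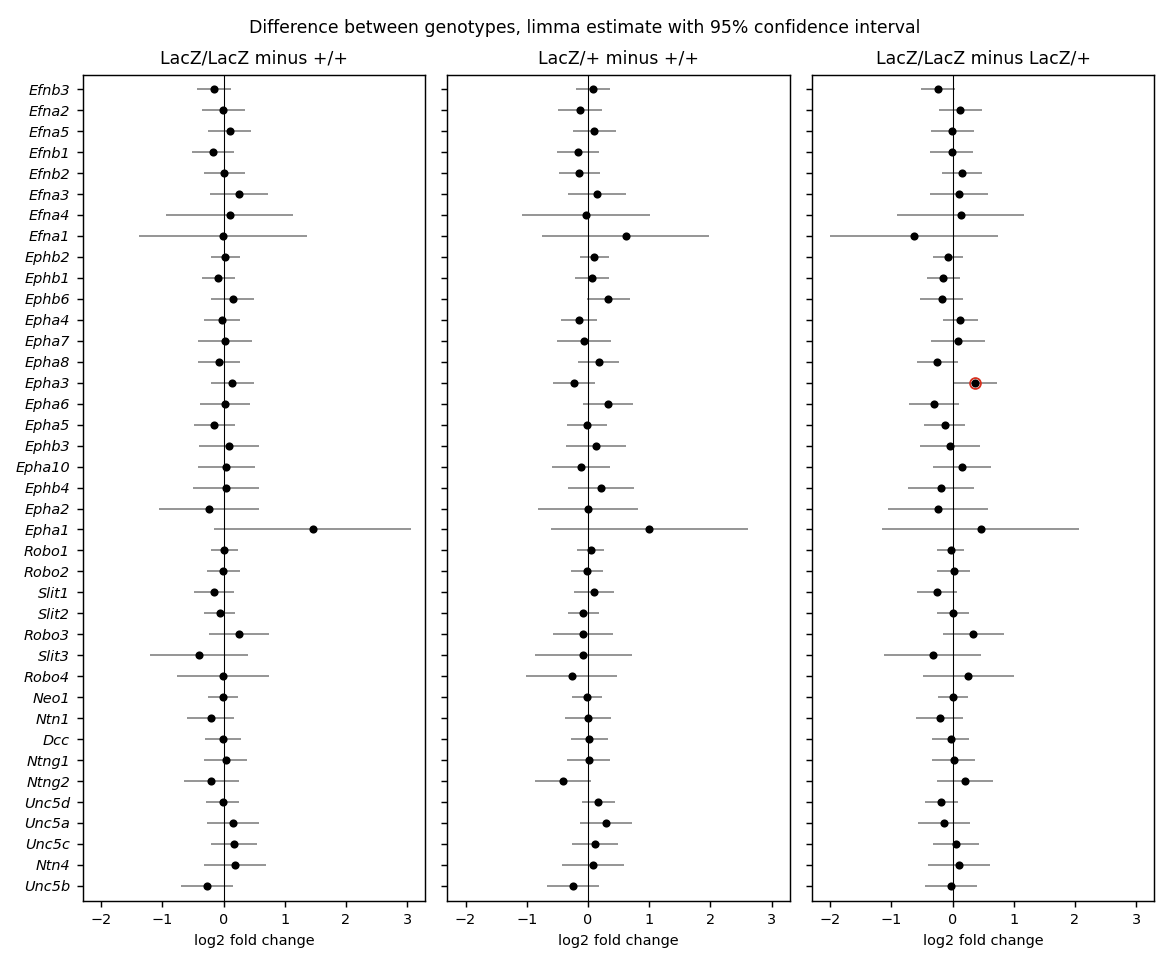
Difference of each guidance gene between genotypes as labelled, as log2 fold change from limma (points) with its 95% confidence interval (lines), for LacZ/LacZ minus +/+ (left), LacZ/+ minus +/+ (middle) and LacZ/LacZ minus LacZ/+ (right). Of the 39 genes, 34, 35 and 33 have intervals within -1 and 1, and the red ring marks *Epha3*, the only unadjusted p under 0.05.

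Among the ephrins, *Efnb3* (chr11:69554092-69560205, minus strand) reached 830.1, 726 and 869 normalized counts under the +/+ label. It reached 761, 656 and 751 under the LacZ/LacZ label and 1006, 767 and 791 under the LacZ/+ label. All LacZ/LacZ values lay below all LacZ/+ values, but they overlapped with +/+. The log2 difference of LacZ/LacZ from +/+ was -0.16 (95% interval -0.44 to 0.12).

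*Efna3*, a lipid-anchored ligand also known from hippocampal astrocytes, had 54.3, 70.9 and 70.7 normalized counts in the +/+ libraries, 99.4, 58.1 and 64.5 in LacZ/+ and 76.8, 70.4 and 85.9 in LacZ/LacZ. The lowest LacZ/LacZ value fell just below the upper +/+ values, and the log2 difference was 0.25 (95% interval -0.23 to 0.73). *Efnb1*, the X-linked ephrin of craniofrontonasal syndrome, had 181, 138 and 158 in +/+, 143, 149 and 132 in LacZ/+, and 151, 153 and 119 in LacZ/LacZ. Its groups overlapped, with a log2 difference of LacZ/LacZ from +/+ of -0.18 (95% interval -0.52 to 0.17), and of -0.15 (95% interval -0.55 to 0.25) with *Xist* as a covariate.

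*Efna2*, a ligand of the visual map, was the ephrin with the highest level per kb after *Efnb3*. It had 119, 137 and 149 normalized counts in +/+, 114, 111 and 145 in LacZ/+ and 137, 145 and 122 in LacZ/LacZ, and all groups overlapped. The means of 135 ± 15.3 (SD, n = 3) in +/+ and 134 ± 11.5 in LacZ/LacZ gave a log2 difference of -0.0036 with a 95% interval from -0.36 to 0.35. The other ephrins, *Efna1*, *Efna4*, *Efna5* and *Efnb2*, had log2 differences between -0.01 and 0.10.

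*Epha3* (chr16:63543534-63864175, minus strand), a receptor for ephrin-A ligands with a role in retinotectal mapping, was the guidance gene with the tightest LacZ/LacZ group. It had 261, 262 and 266 normalized counts in LacZ/LacZ, 253, 248 and 214 in +/+ and 158, 255 and 206 in LacZ/+. The LacZ/LacZ libraries lay above all 6 others, while +/+ and LacZ/+ overlapped. Against +/+ the log2 difference was 0.14 (SE 0.16, unadjusted limma p = 0.39), and the exact two-sided permutation p was 0.1, the smallest that 3 against 3 libraries allow.

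*Epha5* (chr5:84054761-84417382, minus strand), another EphA receptor of projecting neurons, went the other way in its values. It had 364, 373 and 343 normalized counts in LacZ/LacZ, all below the 403, 417 and 378 of +/+, and 297, 470.5 and 436 in LacZ/+. The log2 difference of LacZ/LacZ from +/+ was -0.15 (SE 0.16, unadjusted limma p = 0.35), with the exact two-sided permutation p again at its minimum of 0.1.

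*Epha1*, the least abundant of the 39 genes per kb and an EphA receptor best known from epithelia, gave the most extreme fold change. It had 0, 7.72 and 8.83 normalized counts in +/+, 6.52, 11.1 and 6.53 in LacZ/+ and 6.77, 14.6 and 13.7 in LacZ/LacZ, from 0 to 16 reads per library. The 0 came from the shallow column 7, where 3 reads, the number that a count of 0 allows, would be 7.76 normalized counts. The groups overlapped and the log2 difference was 1.46 (95% interval -0.15 to 3.07, unadjusted limma p = 0.072, exact two-sided permutation p = 0.3), but 0.39 without column 7.

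*Ephb6* had 282, 322 and 341 normalized counts in LacZ/LacZ and 248, 337 and 270.1 in +/+, with overlapping values and a log2 difference of 0.15 (95% interval -0.20 to 0.50). The 2 most abundant Eph receptors were steadier. *Ephb2*, a receptor of commissural and retinal axons, had 2175, 2134 and 1828 in +/+, 2146, 2177 and 2237 in LacZ/+ and 1902, 2255 and 2086 in LacZ/LacZ. *Ephb1*, which turns retinal axons to the same side at the chiasm, had 1138, 924 and 952 in +/+, 1195, 940.1 and 1028 in LacZ/+ and 871, 1051 and 921 in LacZ/LacZ.

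All groups overlapped for both of these receptors. Their log2 differences of LacZ/LacZ from +/+ were 0.03 for *Ephb2* (95% interval -0.21 to 0.26) and -0.08 for *Ephb1* (95% interval -0.36 to 0.19). The remaining 8 Eph receptors had log2 differences between -0.24 for *Epha2* and 0.08 for *Ephb3*.

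*Robo1*, the guidance gene with the smallest coefficient of variation, and *Robo2* are the Slit receptors of most projecting axons. *Robo1* had 2364, 2415 and 2252 normalized counts in +/+, 2397, 2406 and 2437 in LacZ/+ and 2141, 2497 and 2474 in LacZ/LacZ. *Robo2* had 1883, 2141 and 1708 in +/+, 1656, 2064 and 1937 in LacZ/+ and 1716, 2055 and 1943 in LacZ/LacZ. All 3 groups overlapped for both, and the log2 differences of LacZ/LacZ from +/+ were 0.01 (95% interval -0.21 to 0.24) and -0.0022 (95% interval -0.27 to 0.26).

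*Robo3*, the divergent receptor that lets commissural axons reach the midline, had 97.1, 59.5 and 79.0 normalized counts in LacZ/LacZ, 62.1, 60.3 and 70.7 in +/+ and 70.1, 46.1 and 68.5 in LacZ/+. Both the highest and a low value were in the LacZ/LacZ group, and the log2 difference from +/+ was 0.26 (95% interval -0.23 to 0.75). *Robo4*, a receptor of blood vessels, had a log2 difference of -0.0074, with 95% bounds of -0.75 and 0.74.

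Of the ligands, *Slit1* (chr19:41600257-41743665, minus strand), the neuronal Slit, had 513, 495 and 529 normalized counts in LacZ/LacZ, 634, 516 and 559 in +/+ and 807, 527 and 534 in LacZ/+. The LacZ/LacZ values reached into the range of both other groups, with a log2 difference from +/+ of -0.15 (95% interval -0.48 to 0.18). *Slit2* showed a difference of -0.06 (SE 0.12). *Slit3*, the scarcest Slit, had 25.6, 52.1 and 70.4 in LacZ/LacZ, 85.3, 44.9 and 57.4 in +/+ and 96.2, 38.4 and 50.6 in LacZ/+. Its log2 difference of -0.40 (95% interval -1.20 to 0.40) rested on column 1, without which it was 0.0046.

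*Ntn1* (chr11:68209364-68400823, minus strand) had 848, 659.6 and 777 normalized counts in +/+, 1084, 626 and 639 in LacZ/+ and 587, 719.8 and 661 in LacZ/LacZ. Values of LacZ/LacZ overlapped with +/+ and LacZ/+, and the log2 difference from +/+ was -0.21 (95% interval -0.60 to 0.17). *Neo1* (chr9:58874687-59036441, minus strand) had 1422, 1403 and 1264 in +/+, 1179.9, 1409.7 and 1479 in LacZ/+ and 1362, 1395 and 1305 in LacZ/LacZ. Its groups overlapped, with a log2 difference of -0.0082 and a 95% interval from -0.25 to 0.24, and that of *Dcc*, the attractive netrin receptor, was -0.0083 (95% interval -0.31 to 0.29).

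Among the repulsive netrin receptors, *Unc5b*, which also acts in vessels, had 114, 100.3 and 78.0 normalized counts in +/+, 99.4, 67.5 and 79.1 in LacZ/+ and 80.5, 84.1 and 74.7 in LacZ/LacZ. Its LacZ/LacZ values overlapped with +/+, and the log2 difference was -0.27 (95% interval -0.70 to 0.16). *Unc5c*, the receptor altered in the rostral cerebellar malformation mouse, had 264, 363 and 300.3 in +/+, 256, 433 and 326 in LacZ/+ and 358, 318 and 361 in LacZ/LacZ. The groups overlapped again, with a log2 difference of 0.17 (95% interval -0.20 to 0.54). The remaining members of this family, *Ntn4*, *Ntng1*, *Ntng2*, *Unc5a* and *Unc5d*, had log2 differences between -0.20 and 0.19.

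Many of these differences depended on column 7, the shallowest +/+ library. Without it the log2 difference of LacZ/LacZ from +/+ went from 0.25 to 0.13 for *Efna3*, from -0.18 to -0.08 for *Efnb1*, from 0.15 to 0.06 for *Ephb6* and from -0.15 to -0.07 for *Slit1*. It went from -0.40 to -0.15 for *Slit3*, from -0.21 to -0.13 for *Ntn1*, from -0.27 to -0.15 for *Unc5b* and from 0.17 to 0.06 for *Unc5c*. The values of *Epha3* (0.19) and *Epha5* (-0.14) moved less, but that of *Epha3* was 0.07 without column 9, and that of *Robo3* was 0.09 without column 1. Over all other settings *Epha3* reached up to 0.27 and *Robo3* up to 0.44, while *Epha5* ran from -0.20 to -0.02. Other genes moved away from 0 without column 7, with 0.26 for *Ephb3*, 0.35 for *Efna4*, 0.17 for *Epha10* and 0.18 for *Ephb4*, and *Unc5a* went from 0.15 to -0.07.

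**Figure D3:**
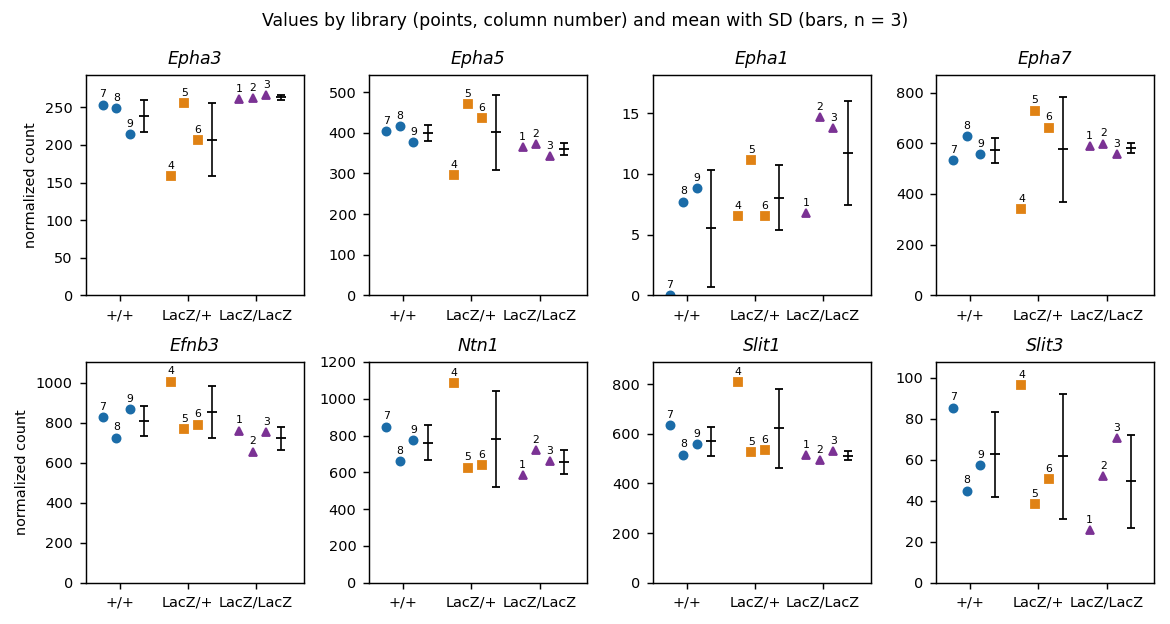
Normalized counts of 8 guidance genes in each library (points, with the column number) and the mean with SD of each genotype as labelled (bars, n = 3). *Epha3* and *Epha5* are the 2 genes whose LacZ/LacZ and +/+ values do not overlap, and column 4 is the lowest library for *Epha3* and *Epha7* and the highest for *Ntn1*, *Slit1* and *Slit3*.

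Between the libraries labelled LacZ/+ and +/+, 0 of the 39 guidance genes passed an unadjusted p of 0.05, where 473 of all tested genes did (2.78%) and 0 passed after adjustment in limma and edgeR (0%), against 1 gene with DESeq2. The fold changes had a median log2 value of 0.02, beside -0.01 for all tested genes. The smallest p belonged to *Ephb6*, with 451, 308 and 323 normalized counts in LacZ/+ against 248, 337 and 270.1 in +/+, and a log2 difference of 0.33 (SE 0.16, unadjusted limma p = 0.062, exact two-sided permutation p = 0.3). *Ntng2*, a membrane-anchored netrin of synapses, followed with 121, 153 and 246 against 238, 234 and 189.9 and a log2 difference of -0.40 (SE 0.21, unadjusted limma p = 0.078, exact two-sided permutation p = 0.4).

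Both of these genes had overlapping groups, and without column 4 their differences were 0.16 for *Ephb6* and -0.18 for *Ntng2*. Values did not overlap for 2 of the 39 genes, *Epha8* and *Unc5d*, where 6.91% of all tested genes had such values. These 2 genes and *Ntng2* were singled out after their values were seen. *Epha8*, a kinase receptor with early expression in the dorsal midbrain, had 178, 177 and 219 normalized counts in LacZ/+ and 173, 166 and 165 in +/+, with a log2 difference of 0.18 (unadjusted limma p = 0.28, exact two-sided permutation p = 0.1). *Unc5d*, a netrin and Flrt receptor of migrating neurons, had 362, 405 and 418 against 357, 345 and 350.4, with a log2 difference of 0.17 (unadjusted limma p = 0.21, exact two-sided permutation p = 0.1). In both cases the LacZ/LacZ values, 166, 183 and 133 for *Epha8* and 300.3, 374 and 370.2 for *Unc5d*, spread over the other 2 groups.

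Between LacZ/LacZ and LacZ/+, 1 of the 39 guidance genes, *Epha3*, had an unadjusted p under 0.05, where 449 of all tested genes did (2.64%). After adjustment 0 of all tested genes passed in limma (0%), edgeR and DESeq2. The values of *Epha3* given above differed by a log2 value of 0.37 (95% interval 0.03 to 0.72, unadjusted limma p = 0.037, adjusted p = 0.999, exact two-sided permutation p = 0.1). This difference rested on column 4, the lowest of all libraries, without which it was 0.20 (95% interval -0.09 to 0.48). It missed an unadjusted p of 0.05 as well without column 1, 2, 3 or 6, where the differences were 0.38, 0.38, 0.37 and 0.39, with DESeq2, where it was 0.33, and without the eBayes trend. With *Xist* as covariate the difference was 0.35 and missed that p as well, while its SE rose from 0.16 to 0.22. *Xist* was higher in every LacZ/LacZ library than in any LacZ/+ library, so that sex and genotype cannot be fully told apart here. Values did not overlap for *Epha3*, higher in LacZ/LacZ, and for *Efnb3*, lower in LacZ/LacZ (log2 difference -0.23, 95% interval -0.51 to 0.04, exact two-sided permutation p = 0.1), where 8.71% of all tested genes had values that did not overlap. Without column 4 the difference of *Efnb3* was -0.11.

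Column 4, the shallowest of the LacZ/+ libraries, stood apart from the other 8. It was the highest of all 9 libraries for 12 guidance genes and the lowest for 11, that is for 23 of 39. Over all tested genes it was the highest for 22.1% and the lowest for 24.3%. For the 28 guidance genes over 100 normalized counts, its median distance from the median of the other 8 libraries was 0.38 on the log2 scale, whereas the other libraries ranged from 0.08 to 0.13. For the 7500 genes over that level the value of column 4 was 0.28.

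The genes that were highest there included *Ntn1* with 1084 normalized counts against a median of 660.5 in the other 8 libraries, *Slit1* with 807 against 528 and *Efnb3* with 1006 against 764. *Slit3*, *Ephb3*, *Ephb6*, *Efna1*, *Efna3*, *Efna5*, *Robo4*, *Epha10* and *Ephb1* were likewise at their highest. The lowest were led by *Epha7* with 341 against 593, *Ntng2* with 121 against 207 and *Epha3* with 158 against 254. *Epha4*, *Epha5*, *Efnb2*, *Ntng1*, *Ntn4*, *Unc5c*, *Neo1* and *Robo2* were also at their lowest.

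In the same library the midbrain regulators *En1* (407 normalized counts) and *En2* (407), the dopamine enzyme *Th* (187) and *Lmx1b* (168) were at their highest of all 9. *Otx2* (205) was at its lowest. Of 8 dorsal midbrain markers, *Tfap2b* (1258), *Tfap2d* (163), *Zic1* (148) and *Pax3* (24.4) were at their lowest and *Meis2* (603) at its highest, and their sum, to which *Tfap2b* contributes most, was the lowest of all libraries (3237). The summed markers of the floor plate (1002) and of the isthmus and rostral hindbrain (1362) were the highest of all libraries in column 4, and those of neurons (28489) the lowest. The sums of midbrain (1798), blood (2249) and, narrowly, endothelium (834) were also at their highest, and those of forebrain (468) and choroid plexus (29.3) at their lowest. Within the isthmus list *Gbx2* went the other way, with 0 normalized counts in column 4 and 12.5 to 53.2 in the other libraries. The part of dissection, depth or cell makeup in the guidance gene values of column 4 was not tested.

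**Figure D4:**
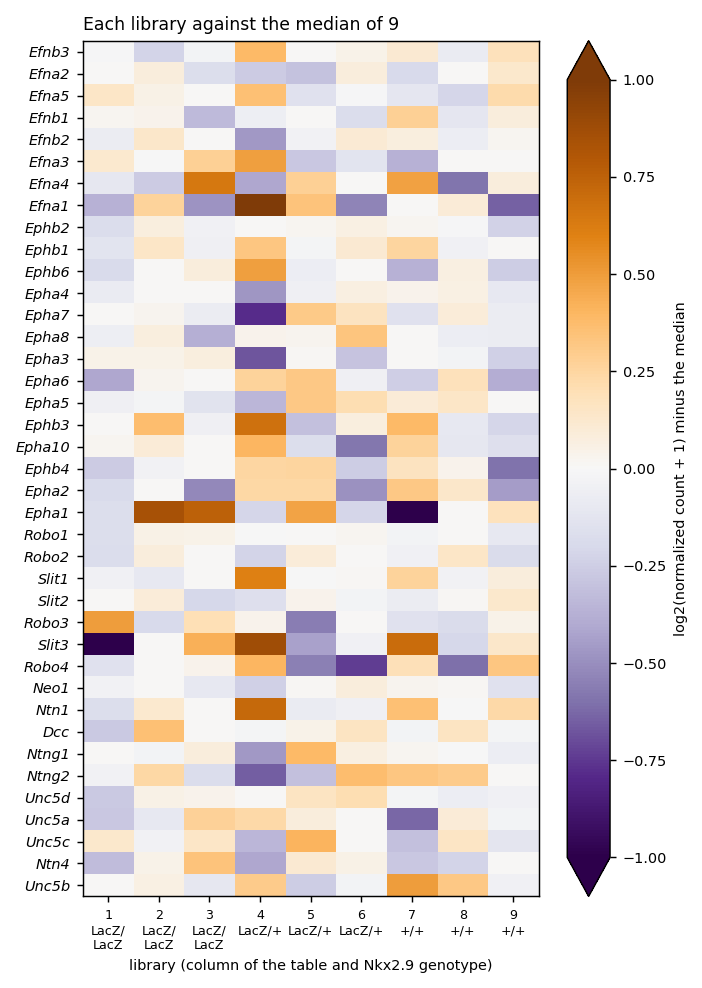
Each library (columns, with the genotype as labelled) against the median of the 9 libraries for each guidance gene (rows), as a difference of log2(normalized count + 1), with colours saturating at -1 and 1. Column 4 is the highest library for 12 genes and the lowest for 11.

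The comparisons with LacZ/+ depended on this library. Without column 4, *Epha7*, an EphA receptor of the dorsal midbrain and cortex, passed an unadjusted p of 0.05 between LacZ/+ and +/+ (log2 difference 0.28, 95% interval 0.05 to 0.51, limma adjusted p = 0.84), with 728 and 662 normalized counts against 533, 627 and 557. *Ntng1* had a difference of 0.25 (95% interval 0.01 to 0.48) and *Ntn1* of -0.26 (95% interval -0.52 to -0.0034) in the same fit. Between LacZ/LacZ and LacZ/+, *Epha5* (-0.33), *Epha7* (-0.26) and *Epha10* (0.42) then passed an unadjusted p of 0.05, and their adjusted p was 1.00. Over all genes tested without column 4, 5.51% passed between LacZ/+ and +/+ and 2.91% between LacZ/LacZ and LacZ/+. *Epha5* thereby had 364, 373 and 343 in LacZ/LacZ against 470.5 and 436. Only 38 of the 39 genes were tested in this fit, as *Efna1* fell under the minimum.

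The intracellular partners of these receptors, 45 genes such as the Slit-Robo GTPase activating proteins and the Nck adaptors, had 0 members with an unadjusted p under 0.05 in any of the 3 comparisons. Of all tested genes 2.6% passed between LacZ/LacZ and +/+, 2.78% between LacZ/+ and +/+ and 2.64% between LacZ/LacZ and LacZ/+. The partners had a median log2 difference of LacZ/LacZ from +/+ of 0.05. The smallest p values were those of the adaptor *Nck2* (log2 difference 0.26), the ephrin-B scaffold *Grip1* (0.25) and the netrin receptor motor *Myo10* (-0.29), each with a limma adjusted p = 1.00. Of 24 tested co-receptors and other ligands, 1 passed the unadjusted p in LacZ/+ against +/+, the adhesion receptor *Dscaml1* (log2 difference 0.38, limma adjusted p = 1.00), where 2.78% of all tested genes passed, and 0 passed in the other comparisons.

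*Dscaml1* had 334, 248 and 249.6 normalized counts in LacZ/+ against 184, 224 and 229 in +/+, with column 4 again the highest. Between LacZ/LacZ and +/+ the smallest p values of this list were those of the netrin-G ligand *Lrrc4c* (log2 difference 0.25), the contactin *Cntn4* (0.25) and *Lrrc4b* (-0.13).

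Marker genes of the tissue were followed beside these values. The midbrain regulators *En1*, *En2* and *Otx2* were present in all libraries. The 10 endothelial markers bear on *Ephb4*, *Efnb2*, *Robo4* and *Unc5b* as genes also expressed in vessels. They had 0 members with an unadjusted p under 0.05 in the 3 comparisons, where 2.6% to 2.78% of all tested genes passed. Their sum ranged from 690.5 to 829 in +/+, 756 to 834 in LacZ/+ and 707 to 827 in LacZ/LacZ. Between LacZ/LacZ and +/+, 0 markers passed for neurons (10 tested), radial glia and proliferation (10), floor plate (8), blood (7) and forebrain (6). Of all tested genes 2.6% passed in that comparison. Markers with lower values in LacZ/LacZ were *Pax7* (1 of 8 dorsal midbrain genes), *En1* and *Pitx3* (2 of 7 midbrain genes), *Tph2* and *Slc6a4* (2 of 6 genes of the isthmus and rostral hindbrain), *Kl* (1 of 4 for choroid plexus) and *Foxc1* (1 of 5 for meninges). These passed the unadjusted p of 0.05 with 0 higher, where 1.22% of all tested genes passed as lower, the directions rest on labels that the *Nkx2.9* reads do not bear out, and their part in the guidance gene values was not tested. All 4 Y-linked genes also passed, all lower in LacZ/LacZ. Between LacZ/LacZ and LacZ/+, the comparison of the *Epha3* value, *Foxc1* (-0.78), *Tph2* (-1.01) and the 4 Y-linked genes passed as lower and *Xist* as higher, and between LacZ/+ and +/+ the collagen gene *Col1a1* passed as lower (-0.77).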

How the data were processed

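RNA was taken from dissected E14.5 midbrain. Cortical tissue is named in the series title, whereas the sample labels and the study's methods name midbrain. Extraction is given as Trizol in the labels and as a column kit with ribosomal RNA depletion in the methods. Reads were aligned with HISAT2 to mm10, counted with featureCounts and scaled with DESeq2 by the authors; their versions, the annotation and the strand setting are not given in the sources used here. The values were deposited by the authors as normalized counts per gene (a scaled signal, not raw reads). Whole reads were recovered from them for 100% of the values above 0, to a tolerance of 1e-06. The authors' tables of fold changes and p-values were not used.

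All libraries were fitted together with limma 3.58.1 (R 4.3.3, genotype as factor, eBayes with trend) on log2(normalized count + 1), over genes with a mean of at least 5, with Benjamini-Hochberg adjustment. Recovered reads were fitted with edgeR 4.0.16 and DESeq2 1.42.0 as alternatives. Exact two-sided permutation tests compared 3 with 3 libraries, where the smallest p is 0.1. The fit was tested on simulated data. Gene names, exon lengths and positions were taken from GENCODE M21, which matched 51633 identifiers and left 279 unmatched. *Ntn3* was not analysed here, and 1 marker gene is not reported here. Figures were drawn with matplotlib 3.10.9.

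The guidance genes, the lists of partners and the markers were chosen with earlier results of these data known. Genes described in full were those with an unadjusted p under 0.05 in a comparison, the 3 with the smallest p of LacZ/LacZ against +/+ and the 2 with the highest level per kb in each role group, and X-linked genes. Depth per library limits the precision of the scarce genes, and intervals and floors cover counting error or the spread between libraries only. Alternatives covered the pseudocount, the minimum, the scaling, the test, covariates and leaving out libraries.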

Additional observations from a re-analysis of the deposited data

How the results depend on the processing

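Counts of genes and the fold changes described were recomputed under up to 22 other settings. Guidance genes with an unadjusted p under 0.05 numbered 0 between LacZ/LacZ and +/+ and became 1 (*Epha1*) with *Xist* as covariate, and 0 to 1 when each library was left out in turn (*Epha1* without column 8 or 9). Between LacZ/+ and +/+ their number of 0 became 1 (*Ephb6*) without a minimum and with log2 total reads as covariate, 2 (*Epha7*, *Ntng1*) without columns 4 and 7, a choice made after seeing the data, and 0 to 3 leaving out a library, with *Ephb6* among them without column 5, 6 or 8. Between LacZ/LacZ and LacZ/+ their number of 1 became 0 with DESeq2, without the eBayes trend and with *Xist*, 4 (*Epha5*, *Epha7*, *Epha10*, *Unc5d*) without columns 4 and 7, and 0 to 3 leaving out a library. *Epha3* kept an unadjusted p under 0.05 there in 13 of 22 settings. Without columns 4 and 7 the counts over all genes rose as well in the comparisons with LacZ/+, as given next.

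Over all genes, the 441 with an unadjusted p under 0.05 between LacZ/LacZ and +/+ became 1135 without a minimum, 263 with a minimum of 20, 705 without columns 4 and 7 and 283 to 835 leaving out a library. The 473 between LacZ/+ and +/+ became 1137, 242, 852 and 376 to 936 in the same order, and 264 with DESeq2, 298 with *Xist*, 790 with total reads, 280 with only the 2 genotypes and 293 with upper-quartile scaling. The 449 between LacZ/LacZ and LacZ/+ became 1132, 288, 972 and 293 to 741. After adjustment 0 genes passed, except 1 with DESeq2 (LacZ/+ against +/+) and 6 without columns 4 and 7 (LacZ/LacZ against +/+).

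Of 25 fold changes described, 18 kept their sign throughout. Upper-quartile scaling brought the median of all genes from 0.01 to 0.14 (LacZ/LacZ against +/+) and gave *Efna2* 0.12, *Ephb1* 0.043, *Robo2* 0.12 and *Neo1* 0.12. *Robo1* became -0.0030 with quantile normalization and -0.0061 with *Xist*, *Robo2* 0.0023 with edgeR, and *Ephb2* -0.029 with *Xist*. Without columns 4 and 7 *Ephb1* became 0.0096 and *Neo1* 0.024. Leaving out a library gave ranges of -0.091 to 0.072 for *Efna2*, -0.16 to 0.0096 for *Ephb1*, -0.053 to 0.089 for *Ephb2*, -0.062 to 0.024 for *Neo1*, -0.025 to 0.086 for *Robo1*, -0.080 to 0.083 for *Robo2* and -0.71 to 0.0046 for *Slit3*; the cause was not tested. With the longest transcript as length, 19 of 39 levels per kb moved by more than their SD.

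No paired analysis was possible because the value columns carry no replicate numbers. Depth limits *Efna1*, *Efna4*, *Epha1* and *Epha2* most.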
